A study of Mus musculus with 6 samples.

Results

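The 46 genes described here encode the machinery with which the endoplasmic reticulum (ER) folds secretory proteins, and the stress response that watches over it. They were chosen by name, by a rule that holds no measured value but with earlier results of these data known, out of 55414 gene rows in the count tables, and all 46 were found and passed the filter on low counts, among 13115 genes tested. By role they fall into 12 chaperones and co-chaperones, 13 enzymes of disulfide bond formation, 10 genes of ER-associated degradation, 3 stress sensors and 8 genes of the stress response's output.

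Proteins that enter the secretory pathway fold in the ER lumen, where the Hsp70-type chaperone BiP (Hspa5) holds unfolded chains, protein disulfide isomerases form and reshuffle disulfide bonds, and misfolded chains are sent back to the cytosol for degradation. When unfolded protein accumulates, the sensors IRE1 (Ern1), ATF6 and PERK (Eif2ak3) raise the transcription of chaperones and, through the transcription factor ATF4, of amino acid and cell death genes. Acinar cells of the pancreas make and secrete digestive enzymes in very large amounts, and are a textbook example of a cell with an extensive ER.

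RNA sequencing was done on acinar cells from the pancreas of adult, untreated mice. The 3 control preparations had the genotype Pdx1Cre;Trip12+/+ and the 3 knockout preparations Pdx1Cre;Trip12fl/fl, so both groups carried the Cre recombinase. The Pdx1 promoter is active in the progenitors of acinar, duct and islet cells, so deletion would not be confined to acinar cells. The comparison asks which transcripts differ once TRIP12, an E3 ubiquitin ligase, is lost. The labels number the preparations 1 to 3 in each group as biological replicates and do not say that they came from separate animals, so p-values measure the spread between these samples.

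The libraries held 31019500 to 34041901 gene counts, and levels are given as CPM (normalised read counts) scaled by the trimmed mean of M values (TMM). Trip12, the targeted gene, had 29.0, 22.3 and 26.4 CPM in the controls (replicates 1 to 3), against 14.4, 14.7 and 13.0 CPM in the knockouts replicates 1 to 3, with no overlap. Its log2 fold change, knockout over control, was -0.89 (SE 0.14, edgeR adjusted p = 0.0256), in counts over the whole gene, which do not resolve the deleted exons. Xist and Y-linked counts read control replicate 1 and all 3 knockouts as male and control replicates 2 and 3 as female, so sex was not balanced between the groups. All 15 acinar markers were detected in every library, and their summed TMM-scaled level was 567000 to 760800 CPM in the controls and 460900 to 478300 CPM in the knockouts, without overlap. Leukocyte markers (10 genes) summed to 15.1 to 85.4 CPM in the controls, against 14.6 to 57.2 CPM in the knockouts, and islet markers (8 genes) to 353 to 460 CPM and 241 to 898 CPM. Duct markers summed to 202 to 243 CPM and 189 to 283 CPM, and stromal and endothelial markers to 26.1 to 113 CPM and 31.9 to 131 CPM, with overlap. In such bulk samples, fewer cells of a type and less RNA per cell cannot be told apart.

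Several of these genes are known for short promoter elements, and 5 promoters are shown here. They are those of Hspa5, Hsp90b1 and Creld2, chaperone genes that hold the ER stress element, of Ern1, the sensor gene with a difference past the threshold in the paired fit below, and of Trib3, which had the largest fold change. They were picked after the values were seen. Each is a 300-base window around the RefSeq transcription start in mouse build GRCm38.p6, written 5′ to 3′ on the gene's strand, and capitals mark the motifs found on either strand.

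Hspa5, chr2:34771840-34772139, plus strand: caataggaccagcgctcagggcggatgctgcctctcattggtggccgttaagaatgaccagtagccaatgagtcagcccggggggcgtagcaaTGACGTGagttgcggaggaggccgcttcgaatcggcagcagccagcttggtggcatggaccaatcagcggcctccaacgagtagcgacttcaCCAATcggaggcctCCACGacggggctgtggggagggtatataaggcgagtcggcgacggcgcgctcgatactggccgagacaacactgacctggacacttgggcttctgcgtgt
Hsp90b1, chr10:86705395-86705694, minus strand: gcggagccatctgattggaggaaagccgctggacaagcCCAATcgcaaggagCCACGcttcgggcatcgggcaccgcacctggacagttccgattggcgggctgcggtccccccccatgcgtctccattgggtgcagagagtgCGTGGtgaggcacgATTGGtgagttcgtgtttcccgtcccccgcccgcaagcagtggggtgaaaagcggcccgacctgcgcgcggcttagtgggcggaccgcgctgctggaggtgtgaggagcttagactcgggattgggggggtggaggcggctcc
Creld2, chr15:88819396-88819695, plus strand: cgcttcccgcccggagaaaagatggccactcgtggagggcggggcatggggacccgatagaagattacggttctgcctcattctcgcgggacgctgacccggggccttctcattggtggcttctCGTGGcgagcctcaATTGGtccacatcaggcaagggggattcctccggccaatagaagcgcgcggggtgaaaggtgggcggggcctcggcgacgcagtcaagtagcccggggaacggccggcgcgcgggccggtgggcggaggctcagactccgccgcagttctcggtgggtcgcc
Ern1, chr11:106487747-106488046, minus strand: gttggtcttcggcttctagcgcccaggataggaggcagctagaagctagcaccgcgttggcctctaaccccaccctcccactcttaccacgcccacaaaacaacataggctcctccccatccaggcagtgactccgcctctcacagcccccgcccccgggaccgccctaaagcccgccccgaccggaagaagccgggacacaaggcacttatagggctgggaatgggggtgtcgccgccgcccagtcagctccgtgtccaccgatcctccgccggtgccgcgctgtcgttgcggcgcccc
Trib3, chr2:152344011-152344310, minus strand: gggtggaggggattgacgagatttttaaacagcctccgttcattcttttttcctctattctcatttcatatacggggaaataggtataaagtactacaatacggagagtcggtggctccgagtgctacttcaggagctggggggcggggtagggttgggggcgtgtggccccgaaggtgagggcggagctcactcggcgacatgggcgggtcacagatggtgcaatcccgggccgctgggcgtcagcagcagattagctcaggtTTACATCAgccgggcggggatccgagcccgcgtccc

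In the first 3 windows the capitals are the outer parts of the ER stress element, CCAAT and CCACG with 9 bases between them, which ATF6 binds together with the factor NF-Y. The Hsp90b1 window holds this element in both orientations, and Creld2 holds it on the opposite strand, as CGTGG and ATTGG. The Hspa5 window also holds TGACGTG, a core of the unfolded protein response element. Capitals in the Trib3 window are, on the opposite strand, a match to the C/EBP-ATF response element, searched as TGATGNAA, which ATF4 and CHOP bind. Windows where the searched motifs share bases numbered 0 of the matched ones. The Ern1 window held none of the searched motifs.

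RefSeq windows were matched for 40 of the 46 genes, which gave 45 windows because some genes have more than 1 start. The ER stress element stood in 10 of the 45 windows (22.2%), against 39 of 32851 windows over all promoters (0.119%). It was found in 6 of 9 chaperone windows, namely those of Hspa5, Hsp90b1, Calr, Canx, Dnajc3 and Creld2, in 2 of 16 disulfide windows (Ero1lb and Pdia6), in 2 of 10 degradation windows (Derl3 and Syvn1) and in none of the 2 sensor and 8 output windows. The variant ERSE-II, ATTGG and CCACG with a single base between them, stood in 2 windows (Dnajb11 and Herpud1, 4.44%, against 0.0365% of all promoters). TGACGTG was in 3 windows (Hspa5, Txndc5 and Txndc11, 6.67%, against 2.01%). The C/EBP-ATF element was in 5 windows (Asns, Chac1, Trib3, Herpud1 and Txndc5, 11.1%, against 3.97%), 3 of them among the 8 output windows. A match describes these letters only and does not show binding.

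Expression of the 46 genes spanned a wide range. Per kilobase of exon, Pdia2, a protein disulfide isomerase largely restricted to the pancreas, was the most abundant at 1213 CPM per kilobase over the 6 libraries, followed by P4hb, the general protein disulfide isomerase, at 288 and Herpud1, a membrane protein of the degradation complex, at 100.5. Hspa5 reached 71.2 CPM per kilobase. The sensors were low on the same scale, at 16.0 for Eif2ak3, 7.11 for Atf6 and 4.93 for Ern1. Pdia5 and Trib3 were the least abundant, at 0.808 and 0.814 CPM per kilobase. Pdia2 alone made up 25.5% to 35.2% of the counts of the 46 genes.

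**Figure D1:**
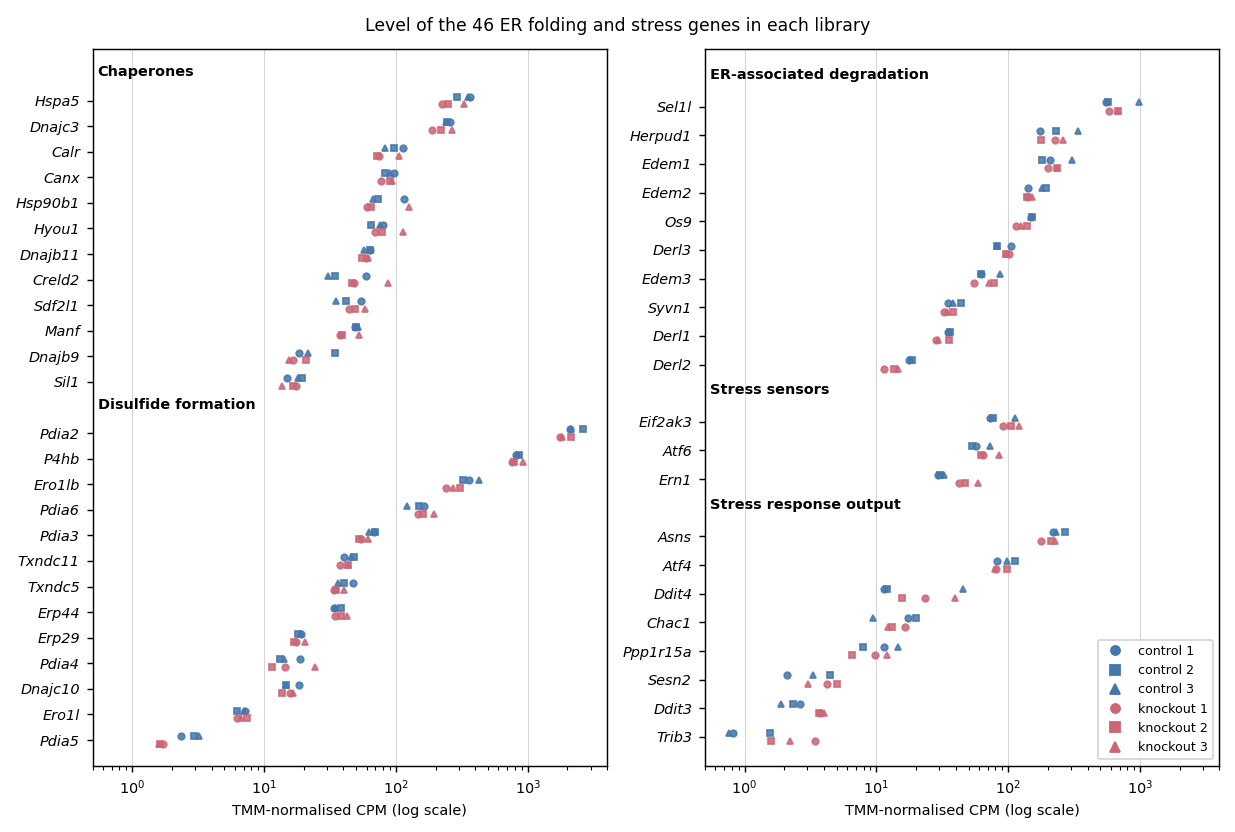
Level of each of the 46 genes in each of the 6 libraries, as TMM-normalised CPM on a log axis, grouped by role and ordered by mean level; blue symbols are control and red symbols knockout libraries, and the symbol's shape gives the replicate number. For most genes the 2 colours mix, while Ern1, Ddit3 and Trib3 have all red symbols to the right and Pdia3, Pdia5, Ero1lb, Derl2 and Os9 all red symbols to the left.

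As a set, the folding and stress genes had mostly small fold changes, more of them below 0 than above. Of the 46, 0 were called by edgeR's quasi-likelihood test at an adjusted p under 0.05, where 0.945% of all tested genes were called, 0.465% higher and 0.48% lower in knockout. Limma-voom called 0 and DESeq2 called 1 (Ern1), where they called 112 and 594 of all 13115 tested genes. At an unadjusted p under 0.05 there were 6 of 46, 13.0%, against 16.7% of all tested genes. With the replicate number as a block, which the correlations between same-numbered libraries allow, 1 of 46 was called (2.17%), where 5.99% of all tested genes were called, 3.4% higher and 2.58% lower. Libraries of the groups did not overlap for 8 of the 46 (17.4%), against 22.9% of all tested genes. Each of these shares lay below that of all genes, and the difference was not tested. They rest on 0 to 8 genes from the same libraries, so they are not separate results. With forward-strand counts the order turned, with 1 of 46 called and 169 of all 12914 tested genes. In same-numbered pairs, 5 of the 46 (10.9%) were higher in knockout in 3 of 3 and 15 (32.6%) were lower in 3 of 3, against 24.2% and 20.7% of all tested genes. The 15 were Hspa5 and Dnajb9 among the chaperones, Pdia2, Pdia3, Pdia5, Ero1lb and Txndc11 among the disulfide enzymes, Syvn1, Derl1, Derl2, Edem2 and Os9 in degradation, and Atf4, Asns and Ppp1r15a among the output genes, and none of them passed the threshold in either fit.

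The median log2 fold change of the 46 was -0.09, and that of all tested genes 0.02. Without the TMM factors, on library totals alone, these medians were 0.33 and 0.43, so the sign of the median turns with the scaling. A change of scaling shifts all genes nearly alike, so it cannot test the place of the 46 below all genes. Individual log2 fold changes ran from -0.77 for Pdia5 to 1.21 for Trib3, with 14 above 0 and 32 below, and 41 of 46 lay within 0.5 of 0. Of all 13115 tested genes, 6866 lay above 0 and 6249 below, and 9926 lay within 0.5 of 0. The median absolute log2 fold change was 0.203, against 0.259 over all tested genes. The median SE was smaller as well, at 0.175 against 0.223, and its part in these contrasts was not tested. The 10 genes with the ER stress element had a median of -0.08, and none was called with or without the block.

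**Figure D2:**
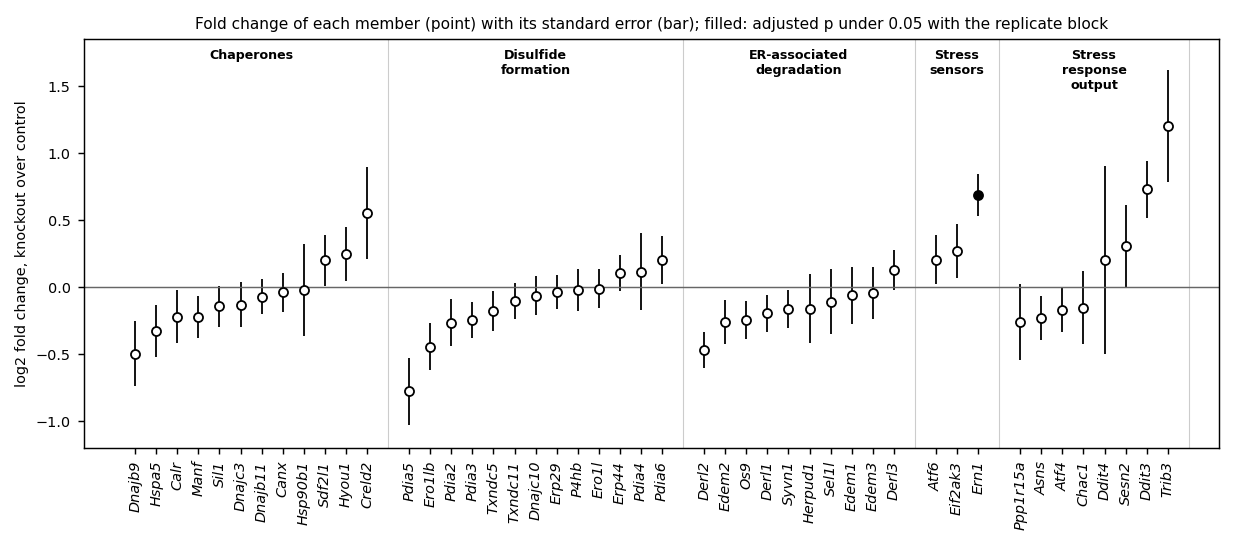
Log2 fold change, knockout over control, of each of the 46 genes from edgeR without the block, grouped by role, with bars of 1 standard error; the filled point is the gene with an adjusted p under 0.05 when the replicate number was a block. All 3 sensors lie above 0 and 9 of 10 degradation genes below 0, and Trib3 is highest at 1.21.

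Among the chaperones, the median log2 fold change was -0.10, with 3 genes above 0 and 9 below, and 0 of 12 were called with or without the block. Hspa5 had 364, 289 and 351 CPM in the controls (replicates 1 to 3), against 225, 248 and 330 CPM in the knockouts. The highest knockout library lay above the lowest control, so the groups overlapped, at a log2 fold change of -0.32 (SE 0.19, adjusted p = 0.452). Dnajc3, a co-chaperone of BiP that also inhibits PERK, had 255, 243 and 240 CPM in the controls, against 188, 221 and 267 CPM in the knockouts. Its knockout libraries lay on both sides of the controls. Sdf2l1, a stress-induced partner of the BiP and J-protein complex, had 54.5, 41.5 and 35.2 CPM in the controls, against 44.2, 48.6 and 58.3 CPM in the knockouts, with overlap again.

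Knockout replicate 3 held much of the spread in this role. Of the 46 genes, 15 had their highest level in that library, among them 6 of 12 chaperones and 5 of 13 disulfide enzymes. Control replicate 2 was highest for 14, and knockout replicate 1 lowest for 17. Such counts were not taken over all tested genes, so whether they are particular to the 46 was not tested. Creld2, an ER protein induced by stress, and Hsp90b1, the Hsp90 of the ER, were both highest in knockout replicate 3. They were picked after their values were seen. Creld2 had 59.2, 34.6 and 30.5 CPM in the controls, against 48.3, 46.7 and 87.8 CPM in the knockouts, a log2 fold change of 0.56 (SE 0.34, adjusted p = 0.482). Hsp90b1 had 115, 72.5 and 66.7 CPM in the controls, against 60.1, 65.0 and 127 CPM in the knockouts, a log2 fold change of -0.02 (SE 0.34, adjusted p = 0.985). In both, control replicate 1 stood above the other controls and knockout replicate 3 above the other knockouts. A list of 12 immediate-early and heat-shock genes that respond to tissue dissociation summed to 639, 94.0 and 485 CPM in the controls (replicates 1 to 3), against 572, 136 and 804 CPM in the knockouts, also highest in knockout replicate 3, and its part in these levels was not tested.

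The remaining chaperones had log2 fold changes between -0.49 for Dnajb9, an IRE1-dependent J-domain protein that targets misfolded chains (SE 0.24, adjusted p = 0.353), and 0.25 for Hyou1, the nucleotide exchange factor of BiP. The lectin chaperones Canx and Calr, which bind glycoproteins, had -0.04 and -0.22. Dnajb11, a J-domain co-chaperone of BiP, had -0.07, Manf, a secreted stress-induced factor, -0.22, and Sil1, a further exchange factor of BiP, -0.14.

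Among the 13 disulfide enzymes the median log2 fold change was -0.06, with 3 genes above 0 and 10 below, and 0 were called with or without the block. Pdia2 had 2081, 2619 and 2133 CPM in the controls, against 1749, 2125 and 1819 CPM in the knockouts, overlapping at a single library (log2 fold change -0.26, SE 0.17, adjusted p = 0.502). P4hb had 808, 851 and 833 CPM in the controls, against 759, 783 and 917 CPM in the knockouts, with a log2 fold change of -0.02 (SE 0.16). Its highest level was only 1.21 times its lowest over the 6 libraries.

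For 3 of the 13 disulfide enzymes (23.1%, against 22.9% of all tested genes) the groups did not overlap, with all knockout libraries below all controls. Ero1lb, an oxidase that recharges protein disulfide isomerases and is enriched in the pancreas, had 360, 320 and 424 CPM in the controls, against 238, 304 and 269 CPM in the knockouts, 73.5% of the control mean. The log2 fold change was -0.44 (SE 0.18, adjusted p = 0.259, or 0.167 with the block), so the difference did not pass the threshold. Pdia5, a rare isomerase, had 2.33, 2.96 and 3.20 CPM in the controls, from 72 to 88 counts, and 1.71, 1.63 and 1.61 CPM in the knockouts, from 57 to 64 counts. That is 58.3% of the control mean at a log2 fold change of -0.77 (SE 0.25, adjusted p = 0.178, or 0.110 with the block). Pdia3, which works with calnexin and calreticulin on glycoproteins, had 67.7, 69.4 and 62.6 CPM in the controls, against 54.1, 52.9 and 61.8 CPM in the knockouts, where the nearest libraries of the groups almost touched (log2 fold change -0.24, SE 0.14, adjusted p = 0.417). Its exons overlap those of Catsper2 on the opposite strand, and the counts, which do not use strand, leave out reads that fall on both genes.

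The other disulfide enzymes lay between -0.18 for Txndc5, a thioredoxin-domain isomerase, and 0.20 for Pdia6, an isomerase that also binds BiP. Pdia4, an isomerase of larger substrates, had 0.12 and Erp44, which retains ERO1 oxidases in the early secretory pathway, 0.11. Erp29 had -0.03, the broadly expressed oxidase Ero1l -0.01, the thioredoxin-domain protein Txndc11 -0.10, and Dnajc10, a reductase that opens disulfides before degradation, -0.06.

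For ER-associated degradation the median log2 fold change was -0.16, with 1 gene above 0 and 9 below, and 0 of 10 were called with or without the block. Sel1l, the adaptor of the HRD1 ubiquitin ligase, had 552, 571 and 974 CPM in the controls, against 580, 683 and 685 CPM in the knockouts, with a log2 fold change of -0.11 (SE 0.24). Control replicate 3 stood apart from the other 5 libraries. Herpud1 had 174, 231 and 337 CPM in the controls, against 227, 177 and 261 CPM in the knockouts, again with control replicate 3 highest (log2 fold change -0.16, SE 0.26).

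Derl2, a derlin of the retrotranslocation channel, had 17.8, 18.7 and 18.2 CPM in the controls, against 11.4, 13.6 and 14.7 CPM in the knockouts, 72.4% of the control mean and without overlap. Its log2 fold change was -0.46 (SE 0.13, adjusted p = 0.142, or 0.0636 with the block), the lowest adjusted p among the genes with a level below control. Its exons overlap Mis12 on the opposite strand. Os9, a lectin that selects misfolded glycoproteins, had 149, 151 and 149 CPM in the controls, against 115, 140 and 125 CPM in the knockouts, also without overlap (log2 fold change -0.24, SE 0.14, adjusted p = 0.450). The ubiquitin ligase Syvn1 (HRD1) had -0.16, the derlins Derl1 and Derl3 -0.19 and 0.13, and the mannosidase-like proteins Edem1, Edem2 and Edem3 -0.06, -0.26 and -0.04.

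All 3 stress sensors were higher in knockout in 3 of 3 same-numbered pairs, as were Ddit3 and Trib3, and Ern1 had the lowest adjusted p of the 46 genes. Ern1 encodes IRE1, the kinase and endonuclease that splices the Xbp1 messenger. It had 29.3, 30.6 and 32.5 CPM in the controls (replicates 1 to 3), from 746 to 930 counts, and 42.6, 47.2 and 59.4 CPM in the knockouts, from 1588 to 2215 counts. The controls lay close together and every knockout library lay above them. The means were 30.8 CPM ± 1.61 (SD, n = 3) and 49.7 CPM ± 8.70, a ratio of 1.61.

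The log2 fold change of Ern1 was 0.69 (SE 0.16) and edgeR's adjusted p without the block was 0.0788, which misses the threshold. With the replicate number as a block it was 0.68 (SE 0.14) with an adjusted p of 0.0160, so Ern1 rose in the paired fit. Without pair 2 the adjusted p of the paired fit was 0.198, and with sex as a covariate it was 0.302 at a log2 fold change of 0.76. The fit with the sex covariate sets the knockouts against control replicate 1 alone, the only control read as male. The sums of acinar and other markers and of dissociation genes are given above, and their part in the result was not tested.

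Eif2ak3 encodes PERK, the kinase that phosphorylates the initiation factor eIF2. It had 72.4, 76.6 and 112 CPM in the controls, against 90.8, 104 and 120 CPM in the knockouts, so the groups overlapped through control replicate 3 (log2 fold change 0.27, SE 0.20, adjusted p = 0.558). Atf6, the sensor cleaved in the Golgi to free a transcription factor, had 57.3, 52.9 and 72.6 CPM in the controls, against 64.4, 61.8 and 84.8 CPM in the knockouts, with overlap as well (log2 fold change 0.21, SE 0.18, adjusted p = 0.640). In both genes replicate 3 was the highest library of its own group. On library totals Ern1 and Eif2ak3 were both called higher, where 1519 of all 13115 tested genes were called and the median of all genes also stood at 0.43.

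Among the 8 output genes the median log2 fold change was 0.03, with 4 above 0 and 4 below, and 0 were called with or without the block. The main transcription factor of this arm, Atf4, which is regulated mainly through translation, had 81.6, 112 and 98.1 CPM in the controls, against 81.2, 98.7 and 80.0 CPM in the knockouts. These ranges overlapped, at a log2 fold change of -0.17 (SE 0.17, adjusted p = 0.690). Asns, the asparagine synthetase gene and a standard ATF4 target, had 218, 269 and 231 CPM in the controls, against 178, 210 and 226 CPM in the knockouts, overlapping at a log2 fold change of -0.23 (SE 0.16, adjusted p = 0.545).

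Ddit3 and Trib3 were far less abundant per kilobase. Ddit3 encodes CHOP, a transcription factor linked to cell death under prolonged stress. It had 2.61, 2.34 and 1.89 CPM in the controls, from 52 to 83 counts, and 3.75, 3.65 and 3.97 CPM in the knockouts, from 128 to 148 counts. All knockout libraries lay above all controls, at 1.66 times the control mean, with a log2 fold change of 0.73 (SE 0.21) and an adjusted p of 0.145, or 0.0804 with the block. Exons of Ddit3 overlap those of Mars and Gm4189 on the opposite strand, and reads that fall on more than 1 gene count as ambiguous, for none of them.

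Trib3, a pseudokinase induced by ATF4 and CHOP, had 0.819, 1.56 and 0.763 CPM in the controls, from 21 to 38 counts, and 3.43, 1.60 and 2.20 CPM in the knockouts, from 56 to 128 counts. Control replicate 2 and knockout replicate 2 nearly coincided, while the other pairs lay apart. The log2 fold change was 1.21 (SE 0.42) with an adjusted p of 0.206, or 0.101 with the block. On library totals Ddit3 and Trib3 were both called, where 1519 of all 13115 tested genes were called, 94.9% of them higher.

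Ddit4, an inhibitor of the kinase complex mTORC1, differed most between replicates of the same group. It had 11.4, 11.95 and 45.2 CPM in the controls, against 23.5, 15.5 and 39.8 CPM in the knockouts, with replicate 3 high in both groups and a log2 fold change of 0.20 (SE 0.70, adjusted p = 0.926). Its highest level was 3.97 times its lowest, second to Trib3 at 4.49. Sesn2, a sestrin that senses amino acids, had 0.31. Chac1, a glutathione-degrading enzyme, had -0.15, and Ppp1r15a, the phosphatase subunit GADD34 that reverses eIF2 phosphorylation, -0.26. All 3 missed the threshold with and without the block.

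**Figure D3:**
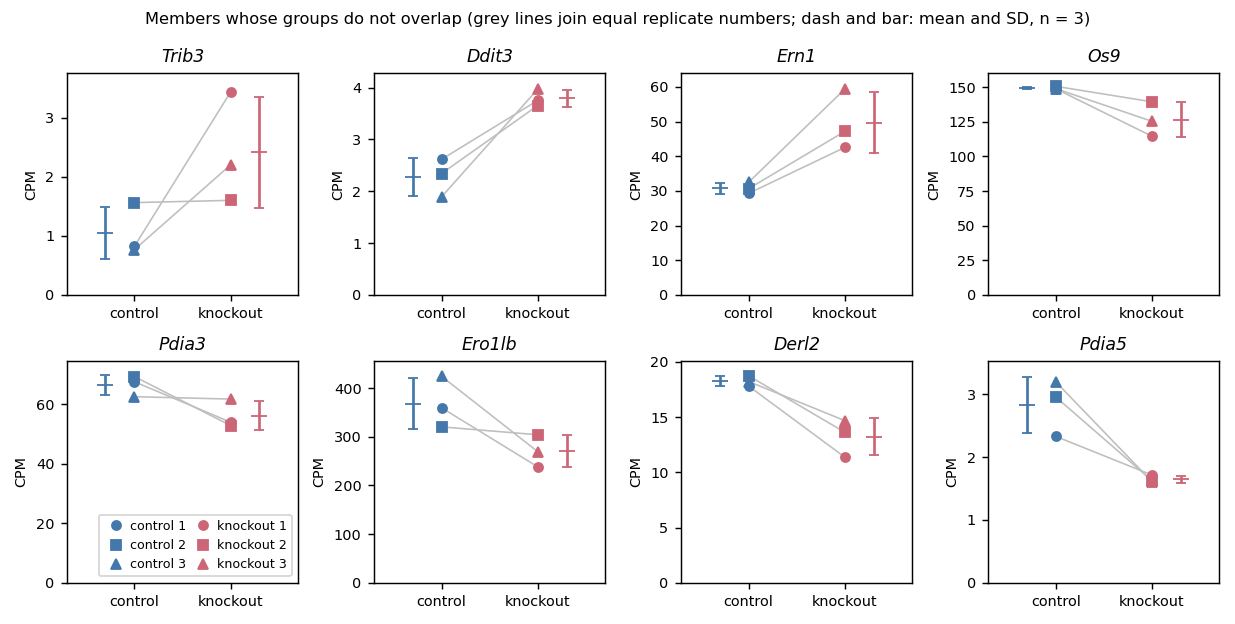
CPM per library of the 8 genes whose control and knockout libraries do not overlap, ordered by fold change; points are libraries, grey lines join equal replicate numbers, and the bars beside them give the mean and SD of each group (n = 3). Ern1 runs from 29.3 to 32.5 CPM in the controls and 42.6 to 59.4 CPM in the knockouts, while in Trib3 the replicate 2 libraries lie almost level and in Pdia3 the replicate 3 libraries do.

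Summed over all 46 genes, the share of counts outside digestive enzymes and granule proteins was 3.68%, 3.56% and 3.51% in the controls, against 3.23%, 3.46% and 3.67% in the knockouts. The means were 3.58% ± 0.0910 and 3.45% ± 0.223 (SD, n = 3), with overlap. Taken over all gene counts, the share was 0.704%, 0.584% and 0.622% in the controls, against 0.719%, 0.760% and 0.826% in the knockouts, without overlap, so the direction turned with the denominator. Digestive enzyme and granule protein genes took 80.9%, 83.6% and 82.3% of all gene counts in control and 77.7%, 78.0% and 77.5% in the knockouts. The 3 sensors held 0.0844%, 0.0765% and 0.0990% of counts outside the enzymes in control and 0.106%, 0.109% and 0.136% in the knockouts, without overlap. In CPM only Ern1 among them was without overlap by itself, while Eif2ak3 and Atf6 overlapped. Of all tested genes, 22.9% had groups that did not overlap.

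Another 125 genes of the same pathways were listed by their known roles, also with earlier results of these data known, and 118 of them were tested. Their counts are therefore a description. In the fit without the block 2 were called higher and 0 lower, where 0.945% of all tested genes were called. With the block 3 were called higher and 6 lower, 7.63% of those tested against 5.99% of all tested genes. Groups did not overlap for 36 (30.5%, against 22.9% of all tested genes), and 26 had an unadjusted p under 0.05 (22.0%, against 16.7%).

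Among 39 further folding genes tested, the median log2 fold change was -0.02. Gpx8, an ER peroxidase that uses hydrogen peroxide from disulfide formation, had 1.01, 0.370 and 0.582 CPM in the controls, from 9 to 32 counts. The knockouts had 6.89, 6.45 and 8.80 CPM, from 226 to 328 counts. Gpx8 was not tested where at least 10 counts were required in every library. It rose by a log2 fold change of 3.47 (SE 0.33, adjusted p = 0.00304 without and 6.5e-05 with the block). With the block 4 folding genes were called lower. Hspa13, an Hsp70-family protein of microsomes, averaged 16.4 CPM ± 3.88 in control and 10.3 CPM ± 1.28 in knockout, at a log2 fold change of -0.67 without the block (adjusted p = 0.143, or 0.0294 with it). For Cnpy2, a saposin-like ER protein, the log2 fold change was -0.59 (adjusted p = 0.148, or 0.0352 with the block). Txndc15, a thioredoxin-domain protein, had -0.56 (0.126, or 0.0443) and the cyclophilin Ppic -1.09 (0.163, or 0.0339), although the Ppic libraries of the groups overlapped. With sex as a covariate the log2 fold change was -0.32 for Ppic and -0.26 for Cnpy2 (adjusted p = 0.707 and 0.674).

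Of 30 further degradation genes, with a median log2 fold change of -0.13, 0 were called without the block and 2 lower with it. Erlec1, a lectin that like Os9 reads glycans on misfolded proteins, had 21.5, 24.7 and 24.6 CPM in the controls, against 14.6, 15.9 and 15.4 CPM in the knockouts. The log2 fold change was -0.62 (SE 0.12, adjusted p = 0.0561, or 0.0170 with the block). Ube2j1, the membrane-anchored ubiquitin-conjugating enzyme of this pathway, had 36.2, 38.7 and 41.6 CPM in the controls, against 22.6, 28.6 and 27.7 CPM in the knockouts (log2 fold change -0.56, adjusted p = 0.107, or 0.0294 with the block). In both genes the groups were separated by a clear gap.

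The 29 stress signalling genes tested had a median log2 fold change of -0.17, and 0 were called with or without the block, with 6 at an unadjusted p under 0.05. Xbp1, the transcription factor whose messenger IRE1 splices, averaged 396 CPM ± 88.8 in control and 335 CPM ± 36.7 in knockout, a log2 fold change of -0.24 (adjusted p = 0.619), in gene counts that do not separate spliced from unspliced messenger. Of 20 ATF4-linked genes, with a median of 0.12, Atf5, a transcription factor regulated like ATF4, had 39.8, 51.4 and 26.5 CPM in the controls, against 104, 103 and 111 CPM in the knockouts. Exons of Atf5 overlap those of Nup62 on the opposite strand, and reads that fall on both genes count as ambiguous, for neither gene. Atf5 rose by a log2 fold change of 1.43 (SE 0.23, adjusted p = 0.0265 without and 0.00223 with the block), and its adjusted p was 0.256 with sex as a covariate. Without the block it missed the threshold when control replicate 2 (adjusted p = 0.0615) or knockout replicate 1 (0.125), 2 (0.0816) or 3 (0.140) was left out. Gdf15, a secreted stress hormone, had 0.189, 0.370 and 0.182 CPM in the controls, from 5 to 9 counts. The knockouts had 0.992, 1.74 and 1.26 CPM, from 37 to 61 counts. Its log2 fold change was 2.43 (SE 0.50), called only with the block (adjusted p = 0.0628, or 0.0119). Gdf15 passed the low-count filter through the knockout libraries, and it was not tested where at least 10 counts were required in every library. Of the 9 genes called with the block, 6 were still called in the paired fit without pair 1, 2 (Gpx8 and Atf5) without pair 2 and 7 without pair 3. A sex covariate leaves control replicate 1 alone, the only control read as male, to set against the knockouts. With sex as a covariate, in the fit without the block, Gpx8 was called (adjusted p = 0.0372), while the other 8 had adjusted p from 0.256 for Atf5 to 0.707 for Ppic.

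**Figure D4:**
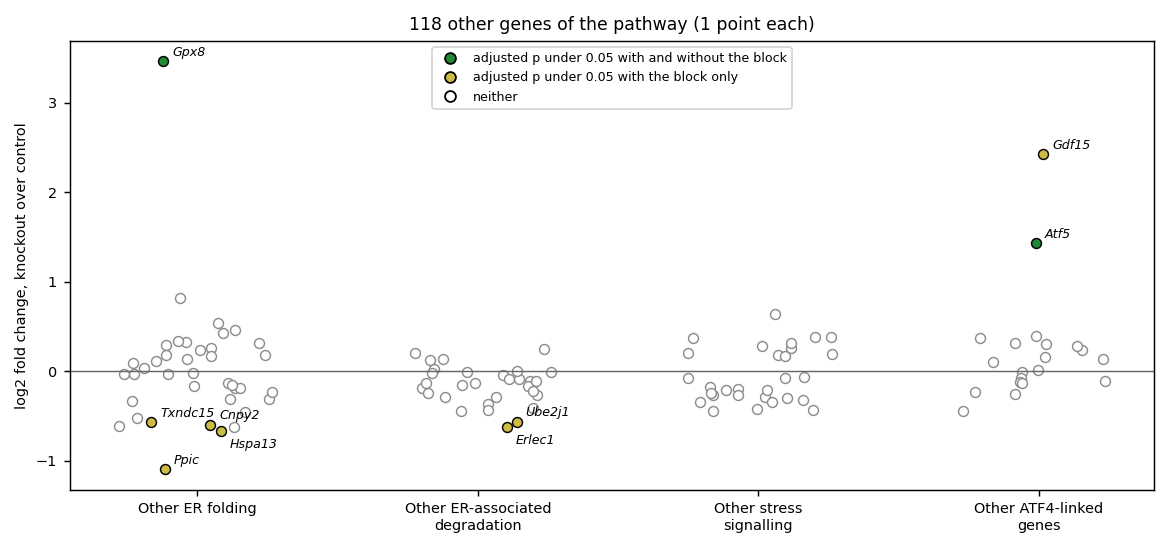
Log2 fold change without the block of 118 further genes of the pathway, 1 point per gene, in 4 lists along the horizontal axis (spread sideways for visibility only); green points had an adjusted p under 0.05 in both fits, yellow points only with the replicate block, and open points in neither. Gpx8 at 3.47, Gdf15 at 2.43 and Atf5 at 1.43 stand above the rest, and the 6 genes called lower lie between -0.56 and -1.09.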

How the data were processed

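Whole-number read counts per gene were deposited by the authors for each of the 6 samples, unstranded and per strand. Per the submitters' processing notes, STAR 2.7.10a and the builds GRCm39 and mm39 were used; the annotation is not given in the sources used here. The unstranded counts were used. Symbols and exonic lengths came from GENCODE annotation of GRCm38 and covered 94.1% of rows and at least 99.8% of each library's counts. Promoter windows came from RefSeq on GRCm38.p6, and coordinates are on that build. Rows that name no gene stayed out of library sizes. Among them were reads ambiguous between genes, 3.29% to 3.63% of all reads.

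The counts were filtered with filterByExpr and tested with edgeR 4.0.16 in R 4.3.3 (TMM, robust quasi-likelihood fit, group only), with Benjamini-Hochberg adjustment over 13115 genes and a call at 0.05. The standard error is the log2 fold change divided by the square root of F. The fit was tested on simulated data. TMM factors ran from 0.785 to 1.02 in control and from 1.12 to 1.19 in knockout. No library pair agreed within sampling noise.

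The labels do not say what replicate numbers stand for. Deviations from the group means correlated at 0.63, 0.455 and 0.285 in same-numbered pairs and between -0.496 and 0.21 in others. Since all 3 exceeded 0.1, equal numbers were treated as pairs, although control replicate 3 with knockout replicate 2 also exceeded it, at 0.21. The pairing was thus inferred from the same counts that the paired fit tests. Pairs 2 and 3 join a control read as female to a knockout read as male. Paired values stand beside each call they change.

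Genes and lists were chosen with earlier results of these data known. Full values are given for genes called without or with the block, genes whose groups do not overlap and the 3 most abundant per kilobase of each role. Other pathway genes are named where called, and Xbp1 was added after its values were seen. Alternatives were other scalings, filters, tests (DESeq2 1.42.0, limma-voom 3.58.1), strands, a sex covariate, the block and leaving out each replicate. With the sex covariate the fold change rests on control replicate 1 alone, since the other controls read as female.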

Additional observations from a re-analysis of the deposited data

How the results depend on the processing

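Without the block, 0 of the 46 genes and 124 of all tested genes were called. The replicate block gave 1 (Ern1) and 785, the block without pair 1 gave 1 (Ern1) and 396, and the block without pair 3 gave 2 (Ern1 and Ddit4) and 832. Library totals gave 5 (Erp44, Ern1, Eif2ak3, Ddit3 and Trib3) and 1519, of which 94.9% were higher against 49.2% with TMM. No filter gave 1 (Ern1) and 850, at least 10 counts in every library 1 (Ern1) and 210, DESeq2 1 (Ern1) and 594, forward-strand counts 1 (Ern1) and 169, and the sex covariate 0 and 21. Leaving out 1 replicate in turn gave 0 of the 46 each time and 20 (without control replicate 2) to 461 (without control replicate 1) of all genes, with 54, 27, 88 and 24 without control replicate 3 and knockout replicates 1, 2 and 3. The cause was not tested. The block without pair 2 gave 0 and 100.

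Ern1 kept a log2 fold change above 0 in all 22 alternatives, from 0.54 to 1.11, with adjusted p from 0.0031 to 0.302, and was called in 8. Trib3 and Ddit3 kept theirs above 0, and Pdia5, Derl2 and Ero1lb below 0. The median of the 46 moved from -0.09 to 0.33 on library totals, where 28 of the 46 turned sign together with the shift of all genes from 0.02 to 0.43. A sign turn of a gene called in neither fit was counted and not treated as a reversal. The difference in the summed share, knockout minus control, was -0.130 percentage points outside the enzymes and 0.132 over all gene counts, which reversed it. Trib3 and Ddit3 rest on 21 to 148 counts per library, and what depth adds to their error was not tested.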

Other observations

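Set against the secretory load instead of the whole library, the 46 genes had 8.71, 6.99 and 7.56 counts per 1000 digestive enzyme and granule protein counts in the controls (replicates 1 to 3), against 9.25, 9.74 and 10.7 in the knockouts. The means were 7.75 ± 0.875 and 9.89 ± 0.718 (SD, n = 3), a ratio of 1.275, and the groups did not overlap. All gene counts outside the enzymes, taken the same way, numbered 236.5, 196.5 and 215.7 per 1000 enzyme counts in the controls and 286.7, 281.9 and 290.5 in the knockouts, a ratio of means of 1.325, so the ratio of the 46 genes was no larger than that of the rest of the library. Summed counts of the 46 genes ran from 181208 to 220168 in control and from 225178 to 265811 in knockout. This ratio combines the levels of the folding genes with those of the enzymes, and which of them accounts for it was not tested. No test was run on it.

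Plasma cell markers, another cell type with a large ER, summed over 8 genes to 82.1, 28.5 and 9.45 CPM in control and to 80.8, 18.2 and 16.8 CPM in knockout. Replicate 1 was the highest library of each group, and the part of these cells in the levels of the 46 genes was not tested.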
